A study of Mus musculus with 6 samples.

Results

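The 8 genes described here make, cut, bind and supply the precursor of hyaluronan. They were chosen by name and not by a cut on measured values, but with earlier results of these data known. The synthases are *Has1* (ENSMUSG00000003665), *Has2* (ENSMUSG00000022367) and *Has3* (ENSMUSG00000031910), and the hyaluronidases are *Hyal1* (ENSMUSG00000010051) and *Hyal2* (ENSMUSG00000010047). The others are the receptor *Cd44* (ENSMUSG00000005087), the hyaluronan-binding proteoglycan *Vcan* (ENSMUSG00000021614) and the UDP-glucose dehydrogenase *Ugdh* (ENSMUSG00000029201). They are 8 of the 49548 genes in the count table, and all 8 were among the 15789 genes with enough counts to be tested. Poly(A) RNA of native cardiac fibroblasts (CFs) was sequenced from 3 WT and 3 CharmeKO samples. The mice were 5 weeks old and on a C57BL/6J background, and the CharmeKO animals carry a polyadenylation signal inserted into the locus of *Charme*, a long noncoding RNA of striated muscle. The cells of both groups were released from whole hearts by enzymatic dissociation and depleted of hematopoietic lineages, so they are a stromal preparation and not a sorted fibroblast population. The labels also list a culture medium, while the study's methods describe these cells as freshly isolated.

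Hyaluronan is a long unsulfated sugar polymer of the extracellular matrix. Synthases in the plasma membrane build it from UDP-glucuronic acid and UDP-N-acetylglucosamine and extrude it from the cell, hyaluronidases cut it, and the matrix proteoglycan versican and the cell-surface receptor CD44 bind it. In the heart it is best known from the endocardial cushions of the embryo, whose formation needs *Has2* and *Vcan*, and from the provisional matrix that fibroblasts lay down after injury.

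The reads counted on genes numbered 9595701 to 42101393 in WT, with replicate 3 the shallowest, and 23550718 to 31048606 in CharmeKO. Levels are given as CPM, counts normalized by library size with the TMM method, and 3 counts were worth 0.0713 to 0.313 CPM. *Charme* itself, the target of the knockout, had 26, 15 and 4 counts in WT replicates 1, 2 and 3, against 7, 0 and 0 counts in the CharmeKO libraries. At these low counts it was not called (log2 fold change −2.66, edgeR quasi-likelihood adjusted p = 0.362, DESeq2 adjusted p = 0.308). The 8 fibroblast markers, of which *Gsn* alone gave 17340 to 26456 CPM in WT and 20095 to 22393 CPM in CharmeKO, summed to between 30974 and 37479 CPM in WT and between 29366 and 34365 CPM in CharmeKO. The 7 endothelial markers summed to between 7183 and 8654 CPM in WT and between 7667 and 9763 CPM in CharmeKO, so the preparation also held endothelial RNA. EdgeR called 0 genes of either list, beside 0.830% of all genes tested. An unadjusted edgeR p under 0.05 was reached by 4 of 8 fibroblast and 2 of 7 endothelial markers, beside 12.8% of all genes. DESeq2, which called 2.50% of all genes, called 2 fibroblast markers lower and 0 endothelial ones. Those 2 were *Col1a1* (log2 fold change −0.77, edgeR adjusted p = 0.189, DESeq2 adjusted p = 0.0102) and *Mfap5* (−0.63, 0.168 and 0.0150), while *Dcn* measured 3185 ± 199.8 CPM in WT and 3907 ± 161 CPM in CharmeKO (0.29, 0.381 and 0.172). *Xist* transcripts predominated in WT replicate 1 and CharmeKO replicates 1 and 2, and transcripts of 4 Y-linked genes predominated in the other 3 libraries. The labels give no sex, and 0.993% of these transcripts in CharmeKO replicate 1 were Y-linked. In bulk samples, fewer cells of a type and less RNA per cell cannot be told apart. The study's methods describe hearts of 3 mice per genotype, the labels do not tie a library to an animal, and p-values measure the spread between these libraries.

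The CharmeKO libraries of this stromal preparation had less *Has1* transcript and more *Has3* transcript than the WT libraries. *Has1* fell 2.00-fold and *Has3* rose 2.57-fold, and these were the members called among 8, 1 lower and 1 higher. With a library left out, the *Has1* call held in 2 of 6 fits and the *Has3* call in 3 of 6. The test was edgeR's quasi-likelihood test over all 15789 genes with a threshold of 0.05 on the Benjamini-Hochberg adjusted p, which called 0.830% of all genes, 0.412% lower and 0.418% higher in CharmeKO. DESeq2 called 3 members, adding *Hyal1*, beside 2.50% of all genes. By unadjusted p under 0.05 in edgeR, 5 of 8 members passed, against 12.8% of all genes. The 3 CharmeKO libraries lay entirely on one side of the 3 WT libraries for 3 of 8 members, or 37.5%, beside 18.2% of all genes tested. The median log2 fold change was −0.35 over the members and 0.0096 over all tested genes. Because the members were chosen with earlier results of these data known, these shares describe them and are no independent support.

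**Figure D1:**
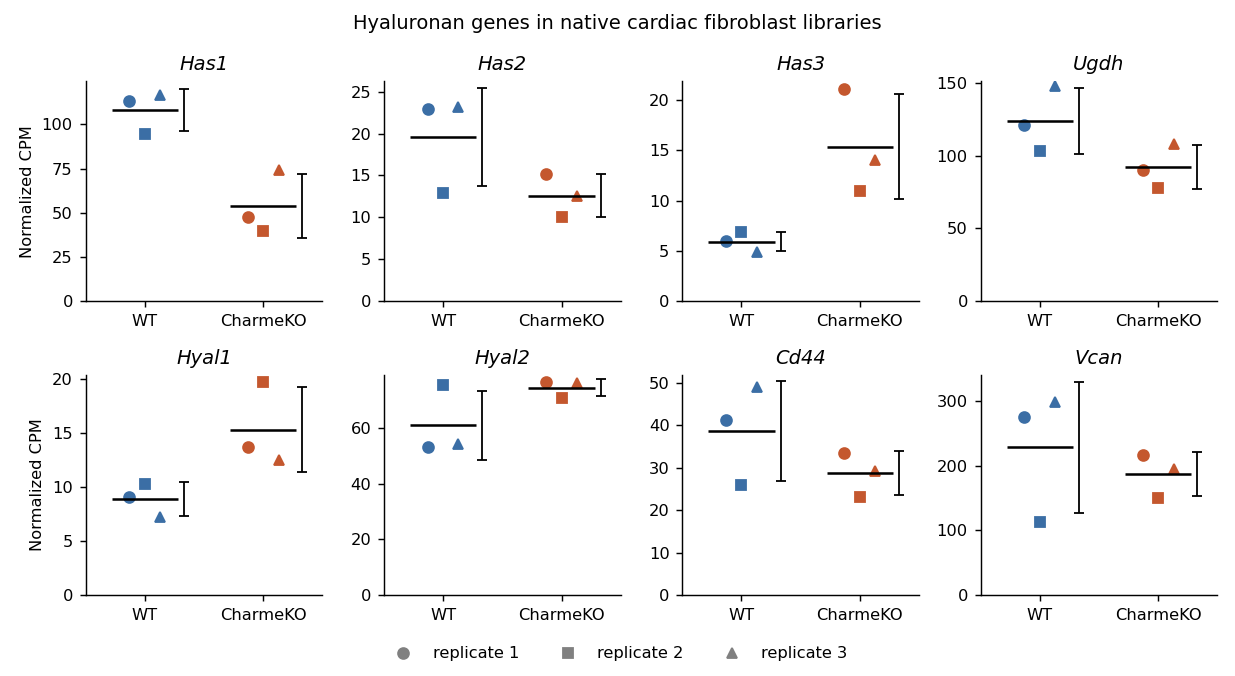
Normalized CPM (vertical axes, from 0) of the 8 hyaluronan genes in the 3 WT and 3 CharmeKO libraries, with the group mean (line) and SD (bar, n = 3); the shape of a point is the replicate number. For *Has1*, *Has3* and *Hyal1* the groups do not overlap, and for the other 5 genes they do.

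*Has1* encodes a synthase that is inducible in fibroblasts by inflammatory and growth signals. It measured 113, 94.3 and 117 CPM in WT replicates 1, 2 and 3, and 47.5, 39.8 and 74.3 CPM in CharmeKO replicates 1, 2 and 3. Every CharmeKO library lay below every WT library, and CharmeKO replicate 3 came nearest to WT. The mean was 108 CPM in WT (SD 12.1, n = 3) against 53.9 CPM in CharmeKO (SD 18.1, n = 3), a log2 fold change of −1.002 (SE 0.20, 95% interval −1.44 to −0.57, edgeR quasi-likelihood adjusted p = 0.0443). By DESeq2 the adjusted p was 1.04e-04. The edgeR call sat near the threshold, as the 119th of 131 genes called, and it was lost with WT replicate 1 left out (adjusted p = 0.143), WT replicate 3 (0.159), CharmeKO replicate 1 (0.252) or CharmeKO replicate 2 (0.205), with log2 fold changes between −1.31 and −0.82 in all 6 such fits. With a term for *Xist* or Y-linked transcripts, added after the data were seen, the log2 fold change was −0.94 (edgeR adjusted p = 0.0536), and the call was also lost when 10 counts were required in 5 libraries (0.0508) or trends with GC and length were taken out of the libraries (0.0595). Among the libraries with *Xist*, the log2 difference was −1.38 (1 WT, 2 CharmeKO), and among those with Y-linked transcripts it was −0.50 (2 WT, 1 CharmeKO).

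*Has3*, whose product is known for making shorter hyaluronan chains than the other synthases, went the other way. It measured 5.95, 6.85 and 4.95 CPM in WT and 21.1, 11.0 and 14.1 CPM in CharmeKO. All CharmeKO libraries lay above all WT libraries, with replicate 1 the highest of them. The mean was 5.92 CPM (SD 0.950, n = 3) against 15.4 CPM (SD 5.17, n = 3), a log2 fold change of 1.36 (SE 0.24, 95% interval 0.83 to 1.89, edgeR quasi-likelihood adjusted p = 0.0233), and DESeq2 gave an adjusted p of 4.83e-05. These levels rest on 253, 180 and 46 reads in WT and 604, 269 and 428 reads in CharmeKO. The call was lost without WT replicate 1 (edgeR adjusted p = 0.105), WT replicate 3 (0.0965) or CharmeKO replicate 1 (0.131), and with the term for *Xist* or Y-linked transcripts the log2 fold change was 1.33 (edgeR adjusted p = 0.0572). The log2 difference was 1.36 among the libraries with *Xist* and 1.27 among those with Y-linked transcripts. *Has3* shares 5.52% of its exon bases with *Chtf8* on the opposite strand, and *Chtf8* measured 104 ± 2.41 CPM in WT and 94.6 ± 9.95 CPM in CharmeKO (log2 fold change −0.13, edgeR adjusted p = 0.682).

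*Has2*, the synthase that the embryonic heart depends on, measured 22.9, 12.9 and 23.1 CPM in WT and 15.2, 10.02 and 12.5 CPM in CharmeKO. The groups overlapped because WT replicate 2 lay within the CharmeKO range, while the other WT libraries lay above it. The log2 fold change was −0.63 (SE 0.23, 95% interval −1.14 to −0.13), and it did not pass the test (edgeR quasi-likelihood adjusted p = 0.284, DESeq2 adjusted p = 0.165). Without WT replicate 2 it was −0.87 and passed (edgeR adjusted p = 0.0284). That fit called 349 genes, against 131 with all 6 libraries. With any other library left out, *Has2* did not pass (edgeR adjusted p between 0.328 and 0.677). Its antisense transcript *Has2os*, which shares 4.30% of the *Has2* exon bases, stood at 2.35 ± 0.493 CPM in WT and 2.40 ± 1.33 CPM in CharmeKO (log2 fold change 0.04, edgeR adjusted p = 0.979).

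Per kilobase of exon, *Has1* was the most abundant synthase transcript in every library and *Has3* the least. The summed level of the 3 synthases was 31.5, 25.0 and 32.1 CPM per kb in WT and 17.4, 12.9 and 21.6 CPM per kb in CharmeKO, so the CharmeKO libraries all lay below the WT libraries. *Has1* made up 81.3 ± 1.95% (SD, n = 3) of that sum in WT and 68.3 ± 7.83% in CharmeKO, and *Has2* made up 15.5 ± 2.84% and 17.5 ± 3.51%. The share of *Has3* was 2.96, 4.29 and 2.42% in WT and 19.0, 13.4 and 10.2% in CharmeKO. Each CharmeKO library therefore devoted a larger part of its synthase transcripts to *Has3* than any WT library did. The ratio of *Has1* to *Has3* per length, on the log2 scale, went from 4.70 ± 0.39 in WT to 2.31 ± 0.62 in CharmeKO, and that of *Has1* to *Has2* was 2.41 ± 0.32 and 1.98 ± 0.46. These shares and ratios combine the tested values above and have no test of their own.

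**Figure D2:**
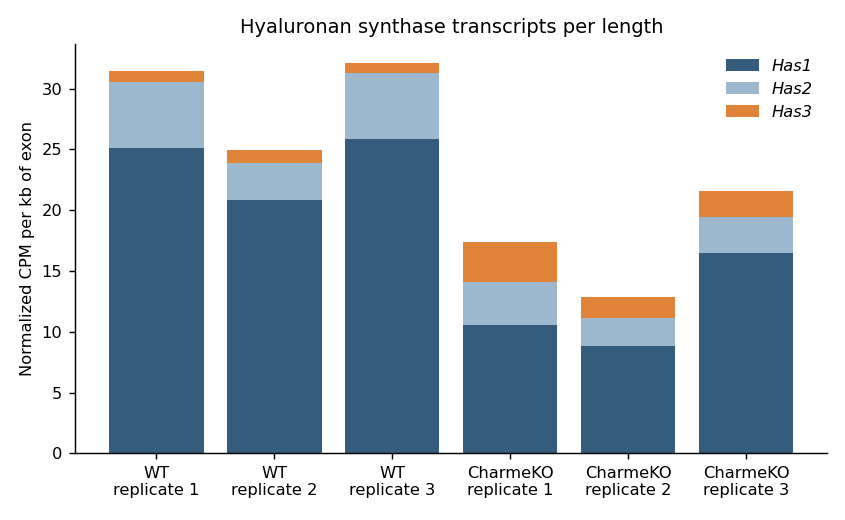
Normalized CPM per kb of exon (vertical axis, from 0) of *Has1*, *Has2* and *Has3*, stacked for each of the 6 libraries. The stacks of the CharmeKO libraries, 12.9 to 21.6 CPM per kb, are all lower than those of WT, 25.0 to 32.1 CPM per kb, while the *Has3* segment is larger in each CharmeKO library than in any WT library.

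The promoter of the called synthase *Has1* is shown with those of *Gfpt2* and *Hk2*, the genes of precursor supply that also fell. Each is the stretch of 250 bases before the RefSeq start on GRCm38.p6, a different build from the GRCm39 of the counts, written 5′ to 3′ on the gene's strand; the table used holds no entry for *Has2* and *Has3*. Capitals mark matches on either strand to 4 motifs. The letters CCAAT form a CCAAT box. The GC box was searched for as GGGCGG. The binding element of the factor AP-1 was searched for as TGACTCA. The cAMP response element, added after the *Has1* sequence had been read, was searched for as TGACGTCA.
*Has1*, chr17:17855189-17855438, minus strand: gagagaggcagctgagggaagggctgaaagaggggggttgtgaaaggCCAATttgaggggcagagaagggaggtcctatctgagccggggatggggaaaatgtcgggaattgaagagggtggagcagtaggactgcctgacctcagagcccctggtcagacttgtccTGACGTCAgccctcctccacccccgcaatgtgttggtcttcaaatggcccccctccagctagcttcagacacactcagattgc
*Gfpt2*, chr11:49793905-49794154, plus strand: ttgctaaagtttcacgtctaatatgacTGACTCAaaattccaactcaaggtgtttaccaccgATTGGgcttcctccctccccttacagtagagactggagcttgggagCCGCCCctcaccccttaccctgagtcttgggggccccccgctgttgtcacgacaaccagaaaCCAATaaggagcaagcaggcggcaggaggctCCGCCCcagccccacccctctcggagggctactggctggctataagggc
*Hk2*, chr6:82774455-82774704, minus strand: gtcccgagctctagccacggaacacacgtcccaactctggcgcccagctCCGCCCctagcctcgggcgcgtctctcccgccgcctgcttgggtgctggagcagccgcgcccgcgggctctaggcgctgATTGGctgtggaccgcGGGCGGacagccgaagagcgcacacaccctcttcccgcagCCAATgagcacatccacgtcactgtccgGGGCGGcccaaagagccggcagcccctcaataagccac

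The 3 promoters share the CCAAT letters, present 1 time in *Has1* and 2 times each in *Gfpt2* and *Hk2*, and these letters occur in 33.9% of 32851 promoters of the same length. The AP-1 element of *Gfpt2* occurs in 4.46% of them, and the GC box, with 2 matches in *Gfpt2* and 3 in *Hk2*, in 32.7%. The cAMP response element of *Has1* occurs in 1.55% of them. It was searched for only after the *Has1* sequence had been read, so its match there is no separate result. TATAAA (12.4% of promoters) and CACGTG (6.02%) had no match in these 3 windows. Such matches describe the letters of the windows, and no binding was measured.

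*Ugdh* encodes the enzyme that oxidizes UDP-glucose to UDP-glucuronic acid, a precursor of hyaluronan and of sulfated glycosaminoglycans. It measured 121, 103 and 148 CPM in WT and 90.0, 78.0 and 108 CPM in CharmeKO. The highest CharmeKO library, replicate 3, lay above the lowest WT library, replicate 2. The log2 fold change was −0.43 (SE 0.16, 95% interval −0.77 to −0.08), which did not pass (edgeR quasi-likelihood adjusted p = 0.291, DESeq2 adjusted p = 0.177).

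The wider supply of UDP-sugars was followed in 13 genes from hexokinase to UDP-N-acetylglucosamine, all of them tested. Of these, 2 of 13 fell, *Gfpt2* and *Hk2*, and 0 rose, where 0.412% of all genes tested were called lower and 0.418% higher. The median log2 fold change of the 13 was −0.16, and 10 were lower and 3 higher in CharmeKO without regard to the test. *Gfpt2* encodes one of the enzymes that commit fructose-6-phosphate to the hexosamine pathway, which ends in UDP-N-acetylglucosamine. It measured 406, 424 and 442 CPM in WT and 178, 154 and 235 CPM in CharmeKO. The highest CharmeKO library was far below the lowest WT library, and the log2 fold change of −1.17 (SE 0.16, edgeR quasi-likelihood adjusted p = 0.00358) was called with each single library left out. *Gfpt1*, which encodes the other enzyme of this step, measured 44.2 ± 12.3 CPM and 41.6 ± 3.21 CPM, with a log2 fold change of −0.08 (edgeR adjusted p = 0.898), and was named after its values were seen.

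*Hk2*, an inducible hexokinase, measured 101, 82.8 and 116 CPM in WT and 48.0, 40.1 and 67.9 CPM in CharmeKO, again without overlap. Its log2 fold change was −0.94 (SE 0.19, edgeR quasi-likelihood adjusted p = 0.0448). The call was lost without WT replicate 1 (adjusted p = 0.134), WT replicate 3 (0.181), CharmeKO replicate 1 (0.252) or CharmeKO replicate 2 (0.230), with the term for *Xist* or Y-linked transcripts (0.0597), with 10 counts required in 5 libraries (0.0516) and with the GC and length trends removed (0.101). *Uap1*, whose enzyme makes UDP-N-acetylglucosamine, measured 157 ± 9.15 CPM in WT and 126 ± 12.4 CPM in CharmeKO, with a log2 fold change of −0.32 (edgeR adjusted p = 0.291). *Gpi1*, which encodes the glycolytic isomerase and is among the 3 genes of the list with the highest CPM, not corrected for length, with *Gfpt2* and *Uap1*, had a log2 fold change of −0.07 (edgeR adjusted p = 0.858).

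**Figure D3:**
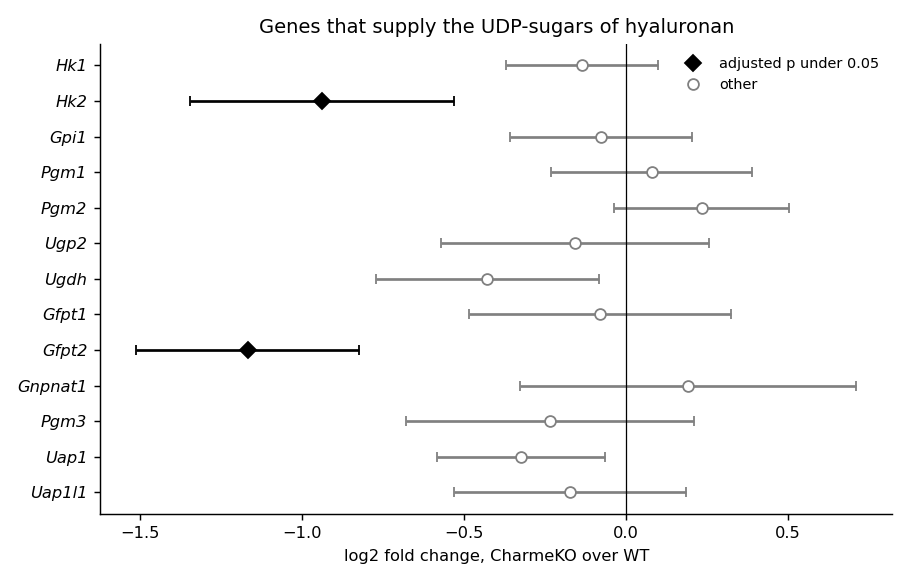
Log2 fold change of CharmeKO over WT (horizontal axis) of the 13 genes of UDP-sugar supply, with 95% intervals from edgeR (bars); filled diamonds mark an adjusted p under 0.05. The diamonds are *Gfpt2*, at −1.17, and *Hk2*, at −0.94.

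On the side of breakdown, *Hyal2* encodes a hyaluronidase anchored at the cell surface and *Hyal1* one that acts in lysosomes. *Hyal1* measured 9.08, 10.3 and 7.21 CPM in WT and 13.7, 19.8 and 12.5 CPM in CharmeKO. Every CharmeKO library lay above every WT library, but the log2 fold change of 0.77 (SE 0.21, 95% interval 0.31 to 1.23) did not pass in edgeR (quasi-likelihood adjusted p = 0.158), whereas it passed in DESeq2 (adjusted p = 0.0469). The counts of *Hyal1* are uncertain, since 50.8% of its exon bases belong also to *Naa80* on the same strand. *Naa80* measured 24.3 ± 4.91 CPM in WT and 24.8 ± 3.10 CPM in CharmeKO (log2 fold change 0.03, edgeR adjusted p = 0.966).

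*Hyal2* measured 53.2, 75.3 and 54.2 CPM in WT and 76.4, 70.9 and 76.2 CPM in CharmeKO. WT replicate 2 lay inside the CharmeKO range and the other WT libraries lay below it. The log2 fold change was 0.29 (SE 0.14, 95% interval −0.02 to 0.59, edgeR quasi-likelihood adjusted p = 0.419). Of the 12 breakdown genes, 7 were tested and 0 were called by edgeR (0.830% of all genes were called). An unadjusted edgeR p under 0.05 was reached by 1 of the 7 (12.8% of all genes), while DESeq2 called 1, *Hyal1* (2.50% of all genes). The other genes of the list high in CPM were *Hexa* (101 ± 7.27 CPM in WT and 109 ± 4.60 CPM in CharmeKO), whose enzyme trims sugar ends in lysosomes, the membrane protein gene *Cemip2* (75.1 ± 5.87 and 65.6 ± 10.6 CPM) and the lysosomal glucuronidase gene *Gusb* (70.3 ± 5.38 and 69.8 ± 6.20 CPM). *Hyal4*, *Hyal5*, *Hyal6* and *Spam1* had 0 counts in all 6 libraries, which allows up to 0.313 CPM in the shallowest of them.

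*Cd44*, the main surface receptor for hyaluronan, measured 41.3, 25.8 and 48.9 CPM in WT and 33.5, 23.2 and 29.3 CPM in CharmeKO. The groups overlapped, with WT replicate 2 below 2 of the CharmeKO libraries. The log2 fold change was −0.42 (SE 0.21, 95% interval −0.89 to 0.04, edgeR quasi-likelihood adjusted p = 0.443), and without WT replicate 2 it was −0.65 (edgeR adjusted p = 0.0624).

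For the lists in this paragraph, the shares over all genes tested were 0.830% called by edgeR and 2.50% called by DESeq2. An unadjusted edgeR p under 0.05 was reached by 12.8% of all genes. Among the 8 hyaluronan receptor genes, *Cd44* included, edgeR called 0, with 3 at an unadjusted p under 0.05, and DESeq2 called 1, *Stab1*. *Stab1* encodes a scavenger receptor of endothelial cells and macrophages, and it measured 346 ± 11.2 CPM in WT and 238 ± 37.7 CPM in CharmeKO (log2 fold change −0.54, edgeR quasi-likelihood adjusted p = 0.120, DESeq2 adjusted p = 0.00515). *Tlr4*, a receptor of innate immunity that also responds to hyaluronan fragments, measured 24.7 ± 4.69 CPM and 23.7 ± 3.40 CPM, and was named after its values were seen. *Lyve1*, which encodes the receptor of lymphatic endothelium, measured 20.0 ± 2.61 CPM and 28.8 ± 4.22 CPM without overlap and without a call (log2 fold change 0.53, edgeR adjusted p = 0.181). The 5 lymphatic endothelial markers summed to between 242 and 295 CPM in WT and between 256 and 281 CPM in CharmeKO. Without regard to the test, 3 of them were lower and 2 higher in CharmeKO. EdgeR called 0 of them, with 3 at an unadjusted p under 0.05, and DESeq2 called 1, which was lower. EdgeR and DESeq2 each called 0 of the 4 genes whose proteins bind CD44 at the cell cortex. An unadjusted edgeR p under 0.05 was reached by 1 of these genes. The highest in CPM was *Msn*, at 816 ± 92.6 CPM in WT and 762 ± 52.7 CPM in CharmeKO, ahead of *Rdx* (157 ± 12.2 and 191 ± 21.9 CPM) and *Nf2* (95.8 ± 6.27 and 101 ± 2.65 CPM).

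*Vcan* encodes versican, the large proteoglycan that holds hyaluronan in the matrix, and it varied more between WT libraries than between genotypes. It measured 275, 113 and 298 CPM in WT and 217, 149 and 195 CPM in CharmeKO. WT replicate 2 was the lowest of the 6 libraries and the other WT libraries were the highest. The log2 fold change was −0.29 (SE 0.29, 95% interval −0.92 to 0.35, edgeR quasi-likelihood adjusted p = 0.744). It moved to −0.61 without WT replicate 2 (edgeR adjusted p = 0.0657) and to −0.05 without WT replicate 3 (edgeR adjusted p = 0.981). The log2 difference was −0.61 among the libraries with *Xist* and 0.09 among those with Y-linked transcripts.

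Of the 18 genes of hyaluronan-binding matrix, 12 were tested and edgeR called 0, with 2 at an unadjusted p under 0.05, and DESeq2 also called 0. For this list and the next, the shares over all genes tested were 0.830% called by edgeR and 2.50% by DESeq2. An unadjusted edgeR p under 0.05 was reached by 12.8% of all genes. *Itih5*, a relative of the serum proteins that decorate hyaluronan, measured 199 ± 78.2 CPM in WT and 187 ± 22.9 CPM in CharmeKO. *Tnfaip6*, whose product transfers those proteins onto hyaluronan, measured 134 ± 12.9 CPM and 102 ± 19.0 CPM (log2 fold change −0.39, edgeR quasi-likelihood adjusted p = 0.293). Synthesis of the chondroitin sulfate chains that versican carries was followed in 23 genes, 22 of them tested, and 0 were called by either tool, with 4 at an unadjusted edgeR p under 0.05. The polymerizing factor gene *Chpf*, the highest of the list in CPM, measured 220 ± 39.8 CPM in WT and 152 ± 33.3 CPM in CharmeKO, without overlap (log2 fold change −0.53, edgeR adjusted p = 0.243). *Chpf2*, its relative, measured 86.7 ± 1.03 CPM and 67.3 ± 16.9 CPM, and *Xylt2*, which starts the chain, measured 74.5 ± 4.60 CPM and 71.7 ± 7.25 CPM.

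Of the 9 proteases that cut versican or CD44, edgeR called 0, with 2 at an unadjusted p under 0.05, and DESeq2 called 1, *Mmp14*. This membrane protease, which cuts collagen and CD44, measured 236 ± 15.9 CPM in WT and 163 ± 19.1 CPM in CharmeKO (log2 fold change −0.54, edgeR quasi-likelihood adjusted p = 0.102, DESeq2 adjusted p = 0.00367). The versicanase genes *Adamts1* (1631 ± 79.5 and 1422 ± 144 CPM) and *Adamts5* (264 ± 32.2 and 262 ± 23.1 CPM) had the highest CPM of the list, a scale on which long transcripts count for more. The 7 pathway lists together hold 87 genes, of which 82 are not members, so the counts below repeat some members. Of the 87 genes, 75 were tested, and edgeR called 2 lower and 0 higher (0.830% of all genes were called). DESeq2 called 4 lower and 1 higher (2.50% of all genes), and the higher one was the member *Hyal1*. By unadjusted p under 0.05 in edgeR, 17 of the 75 passed, beside 12.8% of all genes, and the median log2 fold change of the 75 was −0.08.

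**Figure D4:**
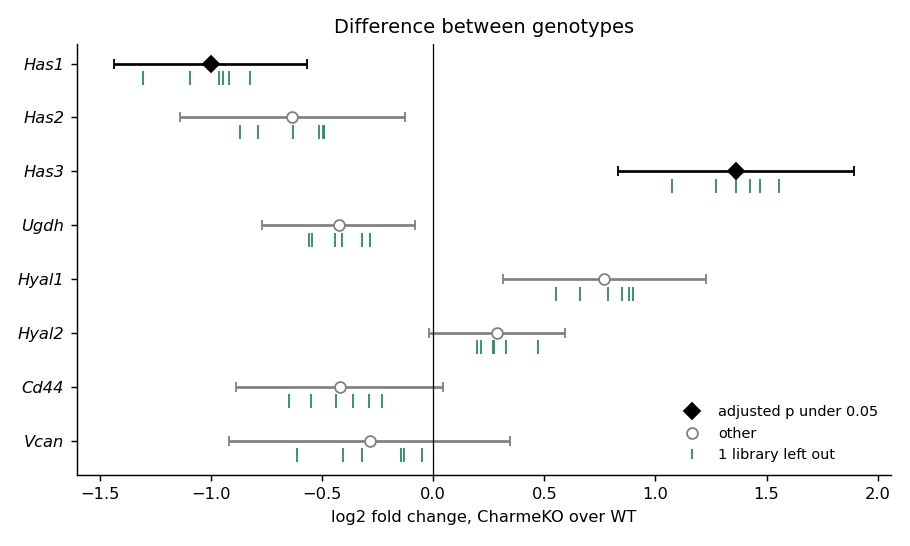
Log2 fold change of CharmeKO over WT (horizontal axis) of the 8 hyaluronan genes with 95% intervals from edgeR (bars); filled diamonds mark an adjusted p under 0.05 and green ticks the values with each of the 6 libraries left out in turn. *Has1*, at −1.002, and *Has3*, at 1.36, are the diamonds, and no tick crosses 0 for any of the 8 genes.

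Levels of different genes compare per kilobase. In WT the mean level per length was 23.9 ± 2.68 CPM per kb (SD, n = 3) for *Has1*, 18.5 ± 3.79 for *Hyal2*, 18.4 ± 3.34 for *Ugdh* and 15.8 ± 6.98 for *Vcan*, and neighbours in this order overlapped. *Cd44* followed at 5.71 ± 1.74 CPM per kb and overlapped *Has2* at 4.64 ± 1.38, and below them *Hyal1* at 2.35 ± 0.41 and *Has3* at 0.927 ± 0.149 each lay apart from its neighbours. In CharmeKO *Hyal2* stood alone at the top with 22.6 ± 0.945 CPM per kb. *Ugdh* at 13.6 ± 2.24, *Vcan* at 12.9 ± 2.38 and *Has1* at 11.9 ± 4.01 CPM per kb overlapped one another in that order, as did *Cd44* at 4.23 ± 0.770, *Hyal1* at 4.06 ± 1.03, *Has2* at 2.97 ± 0.606 and *Has3* at 2.41 ± 0.811. By mean level, *Has1* stood at rank 1 in WT and rank 4 in CharmeKO. The place of *Hyal1* in both orders is uncertain, because its length includes the 50.8% of exon bases that also belong to *Naa80*.

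Several members shared the order of the libraries within a genotype. WT replicate 2 was the lowest WT library and WT replicate 3 the highest for the same 5 genes, *Has1*, *Has2*, *Cd44*, *Vcan* and *Ugdh*. WT replicate 2 was the highest for the other 3, *Has3*, *Hyal1* and *Hyal2*. In CharmeKO, replicate 2 was the lowest for 7 of 8 members, all but *Hyal1*, for which it was the highest. The share of all genes with these orders was not computed. Without WT replicate 2, 349 of all genes tested were called, against 131 with all 6 libraries. Replicate numbers were used as names here and were not taken to pair the groups, and the sample titles do not say whether they do.

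**Figure D5:**
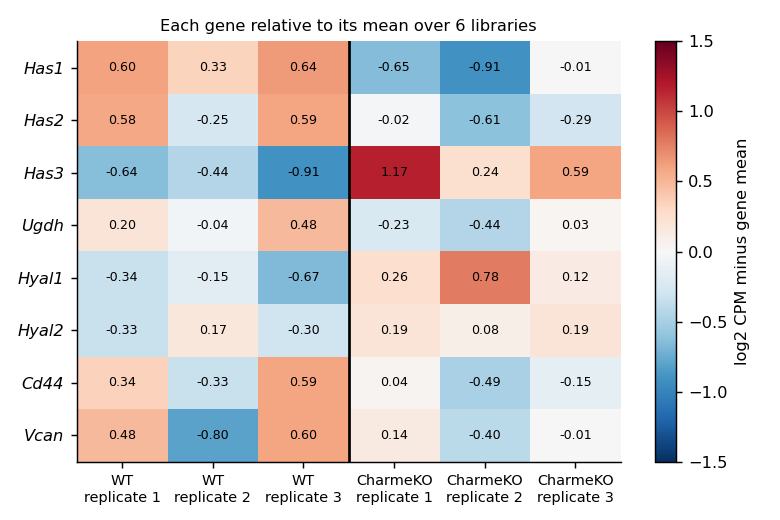
Log2 CPM of each of the 8 genes (rows) minus the gene's mean over the 6 libraries, by library (columns); red is above the mean and blue below it, and the line separates the genotypes. *Has3* runs from −0.91 in WT replicate 3 to 1.17 in CharmeKO replicate 1, while *Has1* runs from 0.64 in WT replicate 3 to −0.91 in CharmeKO replicate 2.

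Among 13174 tested genes with a mean of at least 1 CPM, the genes whose pattern over the 6 libraries was most like that of *Has1* were *Hk2*, *Kcng2* and *Suv39h2*, with root mean square differences of 0.086, 0.099 and 0.114 on the centred log2 scale. *Hk2* is the hexokinase gene above. For *Has2* they were *Armcx4*, *Mvd* and *4933431E20Rik*, with differences of 0.099, 0.113 and 0.118. For *Has3* they were *Patj*, *Lsmem2* and *Rgs7bp*, with larger differences of 0.196, 0.239 and 0.249. Of these 9 genes, *Hk2*, *Lsmem2* (edgeR quasi-likelihood adjusted p = 0.0466) and *Rgs7bp* (edgeR adjusted p = 0.0221) were called, beside 0.830% of all genes. Genes picked for likeness to *Has1* or *Has3*, which were themselves called, tend to be called too, so these calls are no separate result.

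Some markers of other cell types also differed between the genotypes. Of all genes tested, edgeR called 0.830% and DESeq2 2.50%, and 12.8% had an unadjusted edgeR p under 0.05. The 10 epicardial and mesothelial markers summed to between 58.5 and 77.0 CPM in WT and between 34.4 and 42.2 CPM in CharmeKO, and all 8 that were tested were lower, 4 at an unadjusted p under 0.05 and 1 called by either tool. That gene was *Wt1*, which made up most of the sum at 50.8 ± 4.02 CPM in WT and 32.3 ± 1.05 CPM in CharmeKO (edgeR quasi-likelihood adjusted p = 0.0189), while *Upk3b* measured 5.32 ± 3.60 CPM and 1.61 ± 1.60 CPM and had 0 counts in CharmeKO replicate 1. The 7 cardiomyocyte markers summed to between 205 and 261 CPM in WT and between 298 and 465 CPM in CharmeKO. All 7 were higher, 5 at an unadjusted p under 0.05, and DESeq2 called 4 of them. EdgeR called 2, *Myh6* (59.1 ± 3.57 and 106 ± 24.5 CPM, edgeR adjusted p = 0.0292) and *Tnni3* (27.5 ± 3.90 and 53.6 ± 11.0 CPM, edgeR adjusted p = 0.0200). Among 12 genes of the dissociation response, the heat shock genes *Hspa1a* (747 ± 220 and 1839 ± 202 CPM, edgeR adjusted p = 0.0116) and *Hspa1b* (570.3 ± 239 and 1714 ± 164 CPM, edgeR adjusted p = 0.0176) rose, and the sum of the list overlapped between groups. The part of these transcripts in the differences of *Has1* and *Has3* was not tested. The mural, leukocyte, Schwann and erythroid lists had 0 genes called by edgeR, with 1, 0, 0 and 1 at an unadjusted p under 0.05, and DESeq2 called 1, 0, 0 and 0, and their sums overlapped between the groups.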

How the data were processed

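Native CFs from 3 WT and 3 CharmeKO samples gave 6 libraries, all used. The authors aligned reads with STAR to the mouse genome (GRCm39 per the submitters' processing notes), counted them by strand on an Ensembl annotation with *Charme* added, and deposited raw counts, 1 column for each library, without normalization or filter. Totals were 9595701 to 42101393 reads, and limits from 0 counts cover counting error only. For normalization by TMM and testing a gene needed 10 counts in 2 of the libraries, and the groups were then compared with edgeR 4.0.16 (quasi-likelihood test, Benjamini-Hochberg threshold 0.05) in R 4.3.3, after the steps had been tested on simulated data. Standard errors come from the F statistics. Exon lengths, GC content and exon overlaps came from GENCODE M21 (GRCm38), promoters from RefSeq (GRCm38.p6), where 6 of 8 members matched. The 8 members and all lists were chosen with earlier results of these data known. Named genes are the members, the called genes and the 3 highest in CPM of each pathway list, *Has2os*, called markers, and the 3 genes most like each synthase, unless stated. Alternatives were DESeq2 1.42.0, other scalings, filters and lengths, GC and length offsets, the replicate number as a block, omission of hemoglobin genes or of each library and, added later, a term for *Xist* or Y-linked transcripts. Figures used matplotlib 3.10.9. No 2 libraries were duplicates.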

Additional observations from a re-analysis of the deposited data

How the results depend on the processing

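No log2 fold change of the 8 hyaluronan genes changed direction under any alternative. *Has1* lost its call under 10 counts in 5 libraries (−1.01, edgeR adjusted p = 0.0508), the GC and length offset (−1.03, 0.0595) and the term for *Xist* or Y-linked transcripts (−0.94, 0.0536). Among the fits of all 6 libraries, *Has3* lost its call only with that term (1.33, 0.0572). Calls were gained by *Hyal1* under DESeq2 (0.76), no filter (0.77), the replicate block (0.77) and the block with the offset (0.80), by *Has2* under no filter (−0.63) and the block with the offset (−0.71), and by *Ugdh* under the block with the offset (−0.47). With each library left out the ranges were −1.31 to −0.82 for *Has1*, −0.87 to −0.49 for *Has2*, 1.07 to 1.56 for *Has3*, 0.55 to 0.90 for *Hyal1*, 0.20 to 0.47 for *Hyal2*, −0.65 to −0.23 for *Cd44*, −0.61 to −0.05 for *Vcan* and −0.56 to −0.28 for *Ugdh*. The cause of these changes was not tested.

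Members called lower numbered 1, with 0 under 10 counts in 5 libraries, the offset and the *Xist* or Y-linked term, 2 under no filter, 3 under the block with the offset, and 0 to 2 with a library left out. Members called higher numbered 1, with 0 under that term, 2 under DESeq2, no filter, the block, and the block with the offset, and 0 to 1 with a library left out. Pathway genes called numbered 2, with 5 under DESeq2, 1 under 10 counts in 5 libraries, the offset and that term, 10 under no filter, 6 under the block, 4 under the block with the offset, and 1 to 5 with a library left out. All genes called numbered 131 (65 lower, 66 higher), with 394 under DESeq2 (240 and 154), 699 under no filter (446 and 253), 302 under the block (187 and 115), 224 under the block with the offset, and 61 to 349 with a library left out. The median log2 fold change of all genes stayed between 0.00017 and 0.023. With the longest transcript as length, the WT shares of *Has1* and *Has2* moved to 84.6% and 12.6%. With a library left out, the WT shares lay between 80.2 and 82.0% for *Has1*, 14.6 and 17.1% for *Has2* and 2.69 and 3.63% for *Has3*, and the CharmeKO shares between 64.4 and 72.2%, 16.0 and 19.4%, and 11.8 and 16.2%.

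The replicate numbers were not taken as pairs: deviations of same-numbered libraries from their group means correlated at 0.216, 0.0535 and 0.161, though each library correlated best with its own number. WT replicate 3 was the shallowest, and *Has3* rested there on 46 reads.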
